A study of Mus musculus with 3 samples.

Results

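The 78 protein-coding mouse genes whose symbols begin with Mrpl or Mrps followed by a digit encode proteins named for the mitochondrial ribosome. They were chosen by symbol alone from the gene table, without use of any measured value. All 78 were listed in each of the 3 libraries, out of 16742 genes listed in any library. By their known place in the ribosome, 51 belong to the large subunit, which joins amino acids into protein. Another 26 belong to the small subunit, which reads the messenger RNA. The remaining gene, Mrps36, is now assigned to the 2-oxoglutarate dehydrogenase complex of the citric acid cycle and was kept because the symbol rule takes it.

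The mitochondrial ribosome makes the few respiratory chain subunits that mitochondrial DNA encodes. Its proteins are all encoded in the nucleus, made on cytosolic ribosomes and imported into mitochondria, where they assemble on ribosomal RNAs transcribed from mitochondrial DNA. Many have homologues in bacterial ribosomes, and the others were added in the mitochondrial lineage. Dividing blood progenitors and acute myeloid leukemia cells are known to depend on mitochondrial translation.

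RNA was sequenced from 3 libraries of C57BL/6 mice, 1 library per condition and 3 mice pooled in each, with an age of 6 to 8 weeks in the labels. The control library held lineage-negative (lin-) bone marrow cells of wild-type animals. The TR1 and TR9 libraries held sorted GFP+ bone marrow cells of leukemia mice with the genotype TBLR1-RARa, a fusion gene carried by the retroviral vector pMSCV-TR-IRES-GFP. The methods describe third-generation leukemia mice, and each line descended by serial transplantation of spleen cells from the single primary recipient for which it is named. The comparison asks how gene expression in the leukemia cells differs from that of normal lin- cells. Control cells were isolated by lineage depletion and leukemia cells by GFP sorting, so genotype, isolation and cell type cannot be told apart.

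Expected counts, the read numbers that RSEM assigns to each gene, summed to between 5129662 and 5571409 per library, and the 100 most abundant genes took 15.8%, 23.1% and 19.5% of them in control, TR1 and TR9. Marker lists set the libraries apart. The summed level of 12 erythroid markers was 2603, 44.2 and 45.9 FPKM (fragments per kilobase of transcript, scaled to the library total) in control, TR1 and TR9, with all 12 lower in both lines. The 5 promyelocyte markers summed to 4251, 21278 and 23701 FPKM, and 10 markers of later granulocytes to 102, 28973 and 9537 FPKM, in the same order. In these bulk samples, fewer cells of a type and less RNA per cell cannot be told apart.

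Mitochondrial ribosomal protein genes took a smaller part of the RNA in both leukemia lines than in control. The 78 genes held 0.341% of all counts in control (95% exact interval 0.337% to 0.346%), 0.250% in TR1 (0.246% to 0.254%) and 0.246% in TR9 (0.242% to 0.251%). The control share lay above both leukemia shares, and the intervals of TR1 and TR9 overlapped. The share was 0.732 times that of control in TR1 and 0.722 times in TR9. These intervals cover counting error only, because no condition had a replicate library. Both subunits showed the same picture. The large subunit held 0.229%, 0.169% and 0.165% of counts in control, TR1 and TR9, and the small subunit 0.109%, 0.0799% and 0.0792%.

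Single genes spanned a broad range of levels. The median FPKM of the 78 genes was 36.3 in the control library, 22.0 in TR1 and 24.1 in TR9. In control the levels ran from 6.01 FPKM for Mrpl17, a protein at the exit of the nascent chain tunnel, to 109 FPKM for Mrpl42. The next highest in control were Mrpl12, a protein of the flexible stalk that recruits translation factors, at 88.2 FPKM, Mrpl18 and Mrps15 at 87.0 FPKM each, and Mrpl20 at 81.8 FPKM. Those 5 genes all had lower levels in both leukemia libraries, and Mrpl33 took the first rank there. No gene had 3 counts or fewer in any library, and the lowest count was 15 for Mrps6 in TR1.

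**Figure D1:**
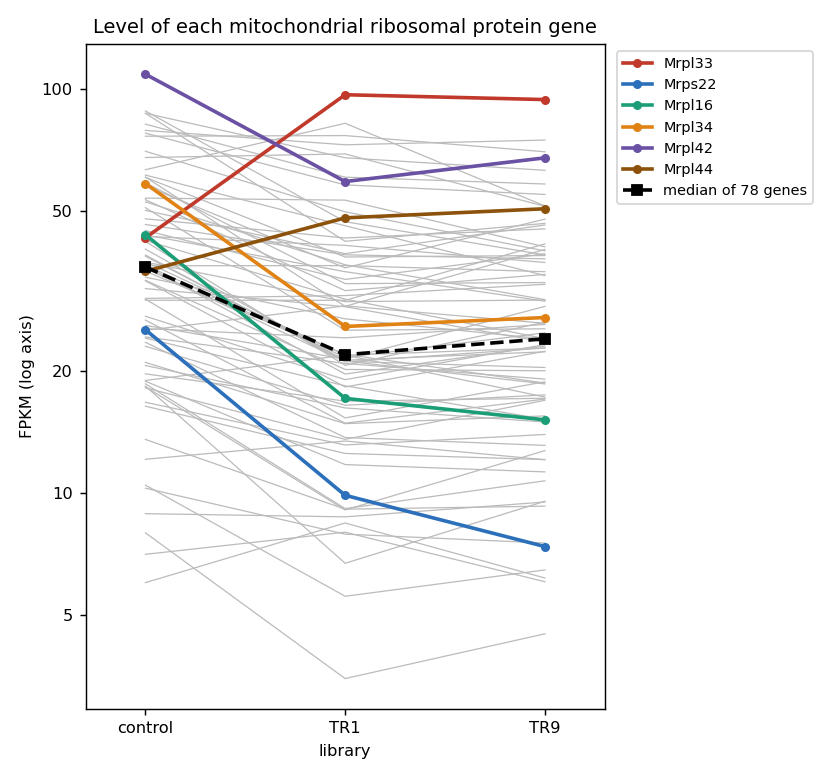
FPKM (log axis) of each of the 78 genes in the control, TR1 and TR9 libraries, with a line joining the values of 1 gene, 6 genes in colour and the median of all 78 as a dashed line. The dashed line runs from 36.3 down to 22.0 and 24.1, while Mrpl33 rises from 42.8 to 96.7 and 94.1.

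Most of the genes were lower in TR1 than in control by a modest amount. The log2 ratio of FPKM was below 0 for 66 genes, or 84.6% against 61.6% of all genes, and above 0 for 12, with a median of -0.46, against -0.29 over the 16282 genes listed in either library. Ratios ran from -1.46 for Mrpl41 to 1.18 for Mrpl33. The 95% exact interval of the ratio lay below 0 for 51 genes (65.4%) and above 0 for 4, where 37.0% of all genes tested lay below and 18.8% above. Among genes with at least 10 counts in a library, which gives intervals of a width closer to that of these 78 genes, 46.3% lay below 0. The intervals of 23 genes included 0.

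Under the study's rule for differentially expressed genes, an FDR of 0.001 or less in an exact Poisson test with a change of 1 or more on the log2 scale, 10 of the 78 genes were called lower in TR1 and 1 higher. Of all genes tested, 13.0% were called lower and 8.09% higher, and of those with at least 10 counts in a library 16.8% and 10.4%. The 10 genes (12.8%) were thus no more than the background share, and that count is not a result about these genes. With a 1.5-fold limit in place of 2-fold, 29 genes (37.2%) were called lower and 1 higher. The shares were 21.0% and 11.0% of all genes, or 27.0% and 14.2% of genes with at least 10 counts in a library. All of these tests compare the reads of 2 libraries and not the conditions.

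The comparison of TR9 with control, which uses the same control library, gave similar counts. The median log2 ratio was -0.51, against -0.12 over 16303 genes. Here 69 genes (88.5%, against 54.4% of all genes) were below 0 and 9 above, from -1.78 for Mrps22 to 1.14 for Mrpl33. The interval lay below 0 for 51 genes (65.4%) and above 0 for 3, against 31.6% and 22.3% of all genes, or 39.4% and 28.3% of genes with at least 10 counts in a library. The study's rule called 5 genes lower (6.41%) and 1 higher, below the background of 10.8% and 9.37%. With the 1.5-fold limit, 27 genes (34.6%) were lower and 1 higher, against 17.4% and 12.8%, or 22.5% and 16.5% with at least 10 counts. Shifts of less than 2-fold in many genes made up the pattern: 66 of 78 genes in TR1 and 72 of 78 in TR9 differed from control by less than 2-fold.

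**Figure D2:**
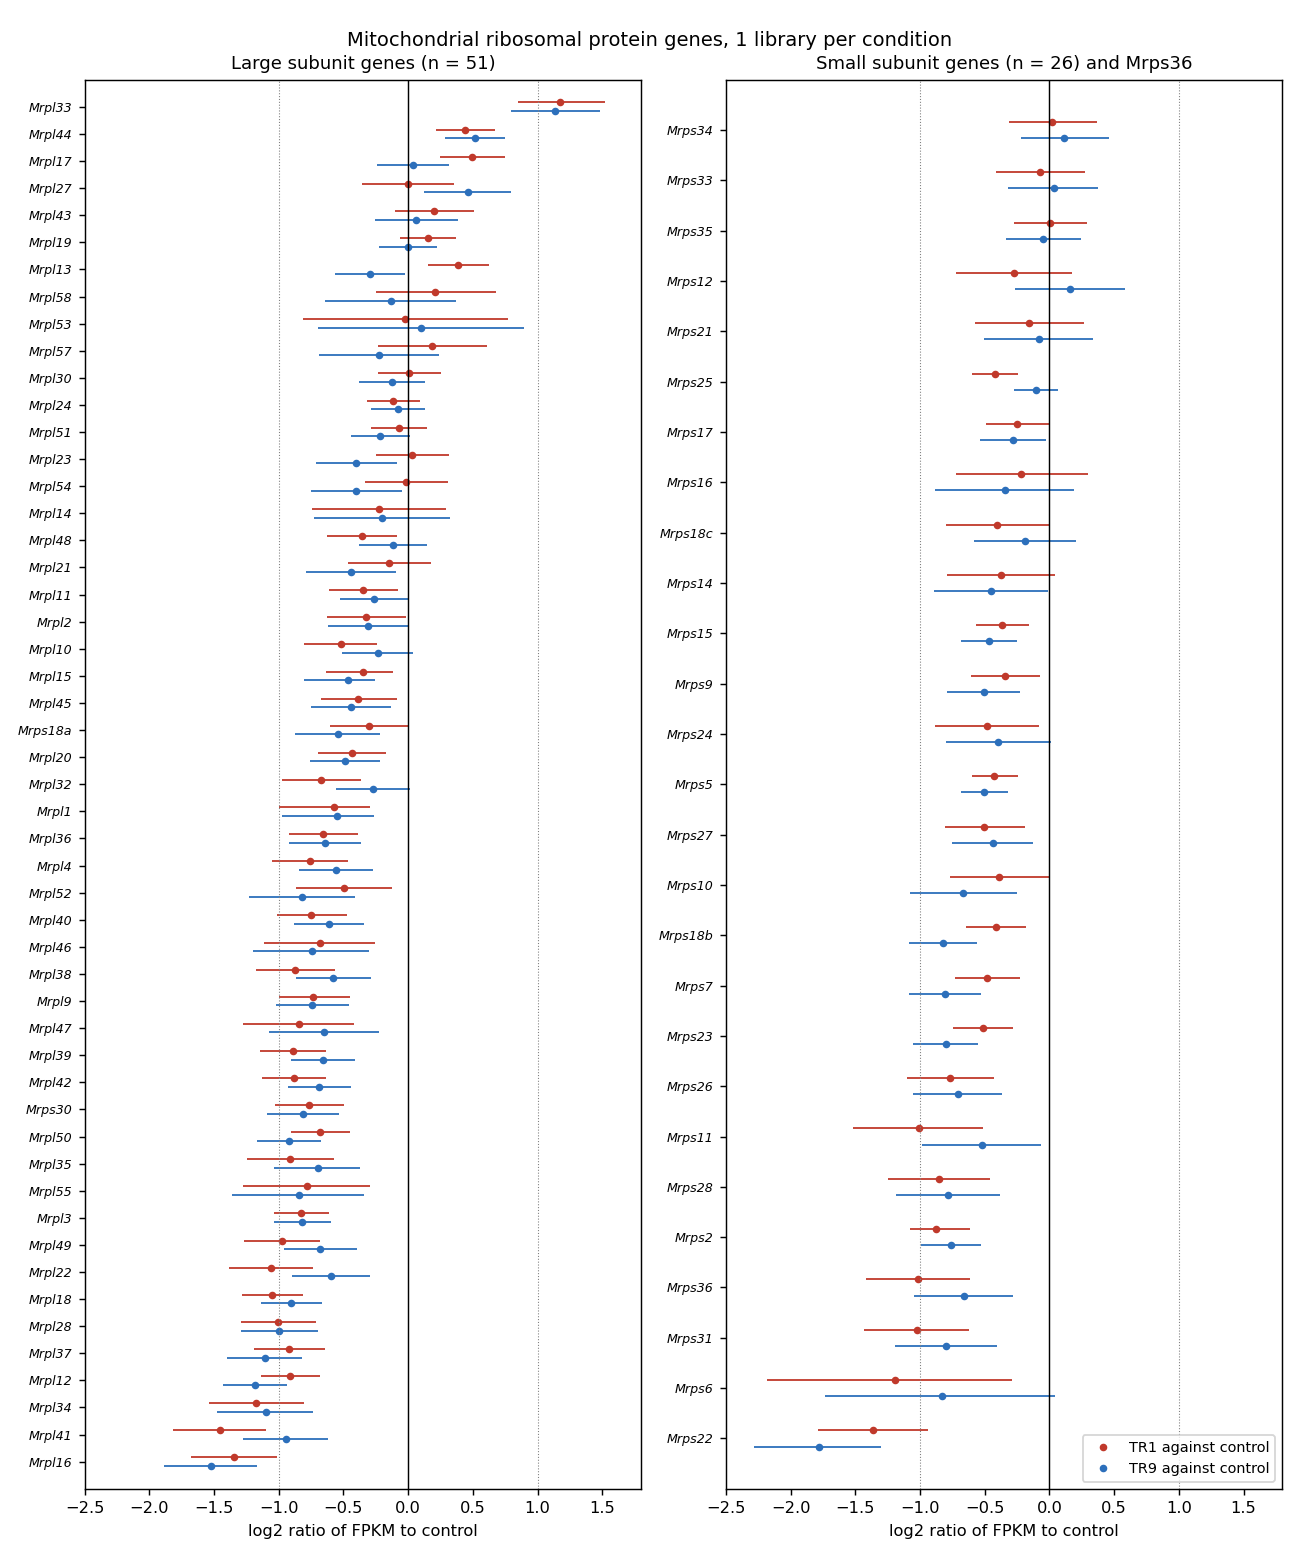
Log2 ratio of FPKM to control for each gene in TR1 (red) and TR9 (blue), with dotted lines at 2-fold. Bars show the 95% exact interval of the ratio of counts per library total, which covers counting error only. The left panel shows 51 large subunit genes and the right panel 26 small subunit genes with Mrps36, each in order of the mean of both ratios. Most points lie between -1 and 0, and Mrpl33 lies above 1 in both lines.

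The scaling of the libraries bears on the size of this difference. TMM scaling moved the median of all genes from -0.29 to -0.04 in TR1 and from -0.12 to -0.01 in TR9. The median of the 78 genes was then -0.21 in TR1 and -0.40 in TR9. Relative to all genes, the difference of medians was -0.17 in TR1 and -0.39 in TR9 on the log2 scale under either scaling. A scaling shifts the log2 ratios of all genes together, so this difference could hardly change and is no check of the result. Under TMM, 34 intervals lay below 0 and 9 above in TR1, against 27.6% and 25.6% of all genes, and the study's rule called 3 genes lower and 1 higher, against 9.77% and 10.4% of all genes. In TR9 the TMM values were 43 below and 3 above, against 27.7% and 25.9%, with 4 called lower and 1 higher against 9.22% and 10.5%. These counts of called genes were below the background shares. Library totals and 5 other scalings all gave a negative median in both lines, and 34 genes in TR1 and 43 in TR9 kept an interval below 0 under all 6.

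**Figure D3:**
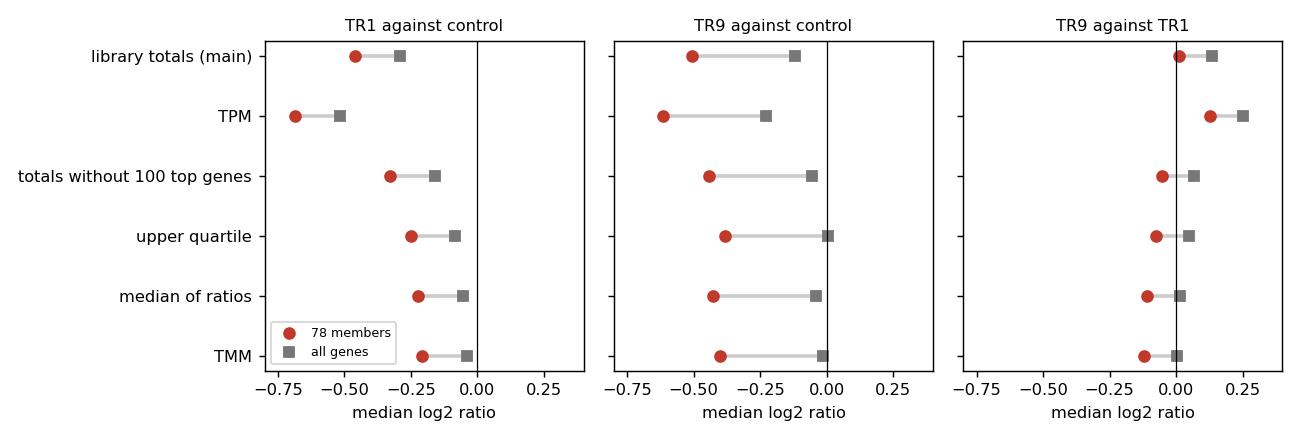
Median log2 ratio of the 78 genes (circles) and of all genes (squares) under library totals and 5 other scalings, for the 3 comparisons. The circles lie left of the squares by about the same distance in each row of a panel, because a scaling shifts both together. In the comparison of TR9 with TR1 the circles fall on either side of 0.

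Both subunits, and within them the genes with and without bacterial homologues, had medians below 0. In TR1 the median log2 ratio was -0.52 for the large subunit and -0.42 for the small, and in TR9 it was -0.54 and -0.49. The 30 large subunit genes with bacterial homologues had median ratios of -0.55 (TR1) and -0.48 (TR9), and the 21 mitochondria-specific ones -0.50 and -0.58. Among small subunit genes the corresponding medians were -0.40 and -0.49 for 16 genes with bacterial homologues and -0.46 and -0.57 for 10 mitochondria-specific ones. No interval of a small subunit gene lay above 0 in either line. The members with intervals above 0, which were 4 in TR1 and 3 in TR9, all belong to the large subunit. Differences between subunits or classes were not tested.

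Structural regions of the large subunit, grouped after the values had been seen, were also described. For 6 genes of the central protuberance, where the large subunit meets the small one, the median ratios were -0.72 (TR1) and -0.60 (TR9), with Mrpl58, a peptidyl-tRNA hydrolase built into the ribosome, as the only one of them above 0 in TR1. For 6 genes at the tunnel exit they were -0.25 and -0.42, and for 5 genes of the stalk and its base -0.35 and -0.26. The medians of all genes were -0.29 and -0.12, so the tunnel exit in TR1 did not lie below all genes. Over the 6 scalings its median in TR1 ran from -0.48 to -0.003. Values within a region were mixed. At the tunnel exit, Mrpl22 had 242, 118 and 150 counts in control, TR1 and TR9, whereas Mrpl17 had 224, 320 and 215. Mrpl17 stood highest in TR1, with a log2 ratio to control of 0.49 (95% exact interval 0.24 to 0.75) there and 0.04 (-0.24 to 0.32) in TR9.

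Mrps22, Mrpl16 and Mrpl34 were called lower in both leukemia lines. Mrps22 (NCBI Gene ID 64655), a mitochondria-specific small subunit protein, had 169, 67 and 46 counts in control, TR1 and TR9, or 25.4, 9.88 and 7.38 FPKM. Both leukemia values were far below control, with log2 ratios of -1.36 (TR1, 95% exact interval -1.79 to -0.94) and -1.78 (TR9, -2.28 to -1.30), a level 3.44-fold lower in TR9. The adjusted p (exact Poisson test, Benjamini-Hochberg) was 4.99e-11 in TR1 and 3.62e-15 in TR9. Mrpl16 (Gene ID 94063), a homologue of the bacterial protein beside the peptidyl transferase centre, had 267, 107 and 87 counts in control, TR1 and TR9, with log2 ratios of -1.34 (-1.68 to -1.01) and -1.52 (-1.89 to -1.17). Mrpl34 (Gene ID 94065), another large subunit protein with a bacterial homologue, had 204, 92 and 89 counts, with log2 ratios of -1.17 (-1.54 to -0.81) and -1.10 (-1.47 to -0.73). Under TMM scaling the call of Mrpl34 was lost in both lines, while those of Mrps22 and Mrpl16 were kept. Abhd8, which lies within 1 kb of Mrpl34 in the RefSeq annotation, had 37, 13 and 12 counts. The counts of both genes were whole numbers in each library, and whether reads of the pair could be told apart was not tested further.

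Mrpl33 (Gene ID 66845) went the other way and was the one gene of the 78 called higher in either line. It encodes a short protein of the large subunit with a bacterial homologue. It had 107, 246 and 220 counts in control, TR1 and TR9, or 42.8, 96.7 and 94.1 FPKM. Both leukemia libraries were above control, by 2.26-fold in TR1 and 2.20-fold in TR9. The log2 ratios were 1.18 (95% exact interval 0.85 to 1.52) and 1.14 (0.80 to 1.48), with adjusted p values (exact Poisson test, Benjamini-Hochberg) of 1.37e-12 and 3.33e-11. Among the 78 genes its FPKM ranked 29 in control and 1 in TR1 and TR9. With TPM scaling the log2 ratio in TR1 was 0.95, under the limit of the call. The annotation overlaps it with the long non-coding RNA Gm38424, which no library listed, so reads from both would be counted together if the counting did not use strand, which is not stated.

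The promoters of these 4 genes, the only ones called in both lines, are shown because their RNA moved in opposite directions. Sequences run 5′ to 3′ on the strand of the gene from 250 bases before to 20 bases after the RefSeq start (build GRCm38.p6), and capitals mark the letters CCGGAAG, the core recognised by ETS factors such as GABP, found on the printed strand. They lie at chr5:31613701-31613970 (plus strand) for Mrpl33, chr9:98601660-98601929 (minus strand) for Mrps22, chr8:71464676-71464945 (plus strand) for Mrpl34 and chr19:11770165-11770434 (plus strand) for Mrpl16.
Mrpl33: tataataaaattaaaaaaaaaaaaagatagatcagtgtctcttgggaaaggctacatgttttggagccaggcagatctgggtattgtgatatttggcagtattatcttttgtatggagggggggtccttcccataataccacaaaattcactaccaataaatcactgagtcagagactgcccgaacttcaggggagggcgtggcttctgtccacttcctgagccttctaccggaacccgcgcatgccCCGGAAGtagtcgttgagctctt
Mrps22: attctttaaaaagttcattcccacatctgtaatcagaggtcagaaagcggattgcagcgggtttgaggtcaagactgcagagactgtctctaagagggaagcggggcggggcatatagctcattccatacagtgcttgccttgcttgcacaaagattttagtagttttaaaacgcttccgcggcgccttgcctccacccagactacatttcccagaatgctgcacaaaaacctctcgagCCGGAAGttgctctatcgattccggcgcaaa
Mrpl34: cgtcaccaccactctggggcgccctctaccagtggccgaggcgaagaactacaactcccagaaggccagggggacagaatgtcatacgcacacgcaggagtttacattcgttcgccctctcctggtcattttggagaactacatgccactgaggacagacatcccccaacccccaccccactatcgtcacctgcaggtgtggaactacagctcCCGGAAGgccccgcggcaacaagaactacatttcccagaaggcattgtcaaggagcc
Mrpl16: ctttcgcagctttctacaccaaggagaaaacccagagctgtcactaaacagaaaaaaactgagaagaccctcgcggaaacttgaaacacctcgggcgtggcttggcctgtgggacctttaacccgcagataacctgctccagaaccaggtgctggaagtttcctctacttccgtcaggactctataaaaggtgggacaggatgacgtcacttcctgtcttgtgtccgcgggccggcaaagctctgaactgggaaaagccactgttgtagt
The ETS letters begin 3 bases before the start of Mrpl33, 11 before that of Mrps22 and 37 before that of Mrpl34, and the promoter of Mrpl16 held none of the motifs searched. Among these 4 promoters, the gene that was higher and 2 that were lower carried the same letters near the start. The 4 were chosen by their calls, and a link between the letters and the direction was not tested.

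Over the whole family, 69 of the 78 genes had a promoter in the RefSeq table. In the 300 bases from 250 before to 50 after the start, on both strands, CCGGAAG was found in 26 promoters (37.7%), against 12.9% of all 17492 protein-coding genes and 17.3% of the 12260 of them listed here. The NRF1 motif was found in 13 (18.8%, against 7.17% of all and 9.85% of listed genes) and the YY1 letters AAGATGGC in 12 (17.4%, against 3.57% and 4.57%), and 43 promoters held at least 1 of the 3 motifs. NRF1, GABP and YY1 are known regulators of nuclear genes for mitochondria. The median log2 ratio of genes with the ETS letters was -0.29 in each line, and those of the 43 genes without them -0.67 and -0.64. For NRF1 the medians were -0.34 and -0.27 with the motif and -0.50 and -0.57 without, whereas for YY1 the genes with the letters were the lower ones, at -0.66 and -0.59 against -0.42 and -0.50. A match is a description of letters and not of a bound site, and the differences were not tested.

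Other genes were called lower in 1 line only, with values on the same side in the other. Mrpl41 had 245, 91 and 119 counts in control, TR1 and TR9, and log2 ratios of -1.46 (95% exact interval -1.81 to -1.10) and -0.95 (-1.27 to -0.62). Mrpl12 had 456, 247 and 188 counts and ratios of -0.91 and -1.18, and Mrpl37 had 327, 176 and 142 counts and ratios of -0.92 and -1.11. In the line without the call, these 3 genes lay just short of the 2-fold limit. Mrpl18, Mrpl22, Mrpl28, Mrps11, Mrps31 and Mrps36 were called in TR1 with log2 ratios from -1.06 to -1.01 and had ratios from -0.99 to -0.52 in TR9. Under TMM scaling none of those 6 calls was kept. Mrpl18 overlaps Tcp1, a subunit of the cytosolic chaperonin, in the span from start to end in the annotation, and Tcp1 had 2718, 1192 and 1133 counts. The counts of both genes were whole numbers in each library, so they show no reads that RSEM divided between the pair. Mrps6 had 33.8, 15 and 17.8 counts, and its log2 ratio of -1.20 in TR1 had an adjusted p of 0.0169 (exact Poisson test, Benjamini-Hochberg) and was not called.

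A few genes were level or above control. Mrpl44, a large subunit protein with a ribonuclease III-like fold, had 274, 378 and 366 counts in control, TR1 and TR9. Its log2 ratios were 0.44 (95% exact interval 0.21 to 0.67) and 0.51 (0.29 to 0.75), both short of the limit of a call, and with TPM scaling the interval in TR1 included 0. It overlaps Wdfy1 in the annotation, which had 192, 282 and 526 counts. Mrpl44 and Mrpl33 were the 2 genes with intervals above 0 in both lines. Mrpl27 had 133, 135 and 171 counts, with an interval above 0 in TR9 only, and Mrpl19, Mrpl43 and Mrps34 had intervals that included 0 in both lines with library totals, although those of Mrpl19 and Mrpl43 in TR1 lay above 0 under 4 of the 6 scalings. Of the 78 genes, 44 (56.4%) had intervals below 0 in both lines, which share the control library, against 28.5% of all genes and 34.8% of those with at least 10 counts in a library.

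The 3 paralogues that descend from a bacterial small subunit protein belong to different places in the ribosome, Mrps18a to the large subunit and Mrps18b and Mrps18c to the small one. In the classes used above, only Mrps18c was placed with the bacterial homologues, and Mrps18a and Mrps18b with the mitochondria-specific genes. Mrps18a had 201, 166 and 129 counts in control, TR1 and TR9, Mrps18b had 354, 270 and 187, and Mrps18c had 122, 94 and 100. All were highest in control, but in TR1 the intervals of Mrps18a and Mrps18c included 0. Log2 ratios in TR9 were -0.54, -0.83 and -0.19 for Mrps18a, Mrps18b and Mrps18c, and the interval of Mrps18c (-0.59 to 0.20) included 0.

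Between the leukemia lines, 66 of the 78 genes had intervals that included 0 with library totals. The median log2 ratio of TR9 to TR1 was 0.01, against 0.13 over 15706 genes, with 37 genes below 0 (47.4%, against 38.8% of all genes) and 41 above. The study's rule called 0 of the 78 genes in an exact Poisson test with Benjamini-Hochberg adjustment, where 2.31% of all genes were called lower and 4.34% higher. The exact test of edgeR with an assumed variation of 0.2 also called 0, where 0.598% of all genes were called lower and 1.20% higher. Beside shares this small, 0 of 78 in that test says little. At an unadjusted p under 0.05 in the Poisson test, 7 genes were lower and 5 higher in TR9. The interval lay below 0 for 7 (8.97%, against 13.3% of all genes) and above 0 for 5 (6.41%, against 25.4%). The sign of the median turned with scaling and was -0.12 under TMM. The counts of intervals turned too. Under TMM, 20 lay below 0 and 1 above, against 19.1% and 17.9% of all genes. Under TPM, 4 lay below and 14 above, against 9.71% and 33.2%. The median width of an interval was 0.65 on the log2 scale, which limits what could be seen.

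Mrpl13, a large subunit protein with a bacterial homologue, was the one gene past the 1.5-fold limit between the lines, where 3.99% of all genes were lower and 7.91% higher. It had 264, 350 and 201 counts in control, TR1 and TR9, so TR1 was highest and TR9 lowest. The log2 ratio of TR9 to TR1 was -0.68 (95% exact interval -0.94 to -0.43), with an adjusted p of 6.56e-07 (exact Poisson test, Benjamini-Hochberg). Mrpl17 followed with -0.45 (-0.71 to -0.20), then Mrpl23 with -0.43 (-0.75 to -0.12). Mrpl41, at 0.51 (0.10 to 0.92), had the highest ratio.

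Genes that work with the mitochondrial ribosome were read beside it. The list of 5 ribosomal proteins with other symbols had median log2 ratios of -0.82 (TR1) and -0.87 (TR9). In TR1, 4 of the 5 were below 0 and 1 had an interval above 0, and in TR9 all 5 were below 0. Of the 5, Dap3, a GTP-binding small subunit protein, had 447, 246 and 168 counts in control, TR1 and TR9. It was called lower in TR9 with a log2 ratio of -1.32 (95% exact interval -1.58 to -1.06). No other gene of the 5 was called in either line (20% called lower in TR9, against 10.8% of all genes). Of 15 translation factors, 5 were called lower in TR1 (33.3%, against 13.0% of all genes) and 3 in TR9 (20%, against 10.8%) by the exact Poisson test, and none was called higher in either. Tufm, the elongation factor that brings aminoacyl-tRNA to the ribosome, had 768, 293 and 307 counts in the same order and fell in both lines. Gfm2, which helps to recycle ribosomes, had 346, 150 and 167 counts. Their log2 ratios were -1.41 and -1.23 for Tufm and -1.29 and -1.13 for Gfm2, in TR1 and TR9.

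Among 26 assembly factors, 3 were called lower in TR1 (11.5%, below the 13.0% of all genes) and 6 in TR9 (23.1%, against 10.8%), with medians of -0.48 and -0.40. The called genes included Mettl15, a methyltransferase of the small subunit RNA, with 70, 22 and 24 counts in control, TR1 and TR9, and Fastkd2, an RNA-binding protein, with 379, 181 and 145. The 20 mitochondrial tRNA synthetases had medians of -0.56 and -0.53. The 6 genes of mitochondrial transcription had medians of -0.71 and -0.54. Tfam, which packs mitochondrial DNA and starts its transcription, had 250, 118 and 117 counts and was called lower in both lines. RNA of genes encoded in mitochondrial DNA was not analysed here.

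Among 9 regulators of nuclear genes for mitochondria, 1 was called higher in TR1, and 1 lower and 2 higher in TR9, where 8.09% of all genes were called higher in TR1 and 10.8% lower and 9.37% higher in TR9. Counts this small are close to those shares. Ppargc1a, a coactivator of such genes, had 4.12, 25.1 and 54.0 counts in control, TR1 and TR9 and was called higher in both lines, at levels of 0.11, 0.69 and 1.60 FPKM. Pprc1, a related coactivator, was called lower in TR9 with a log2 ratio of -1.39, and its ratio in TR1 was -0.94. Gabpa, the DNA-binding subunit of GABP, had log2 ratios of -0.27 and -0.19, and Myc, a driver of ribosome production, 0.41 and 0.26, none of them past the limit of a call.

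Cytosolic ribosomal protein genes showed the opposite direction. The share of counts in 85 such genes was 6.18%, 9.19% and 7.11% in control, TR1 and TR9, with median log2 ratios of 0.61 and 0.24 over the 84 tested in each line, and the median stayed above 0 under each scaling. Nuclear-encoded respiratory chain genes, whose products join those made by the mitochondrial ribosome, lay closer to the 78 genes, with medians of -0.41 over 80 genes in TR1 and -0.30 over 82 in TR9. The 13 proliferation genes had a median of -1.02 in each line. Of them, 7 were called lower in TR1 (53.8%, against 13.0% of all genes) and 8 in TR9 (61.5%, against 10.8%). These calls used library totals and lay near the 2-fold limit. Over the 6 scalings the median of the list ran from -1.25 to -0.77 in TR1 and from -1.13 to -0.90 in TR9. How many of the calls other scalings would keep was not counted. In TR9, 1 gene was above control. Their summed levels were 2033, 1027 and 1091 FPKM in control, TR1 and TR9. The erythroid markers were lower in both lines too, with Alas2 not listed in either. Whether the mix of cell types or the share of cycling cells had a part in the lower level of mitochondrial ribosomal protein genes was not tested.

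**Figure D4:**
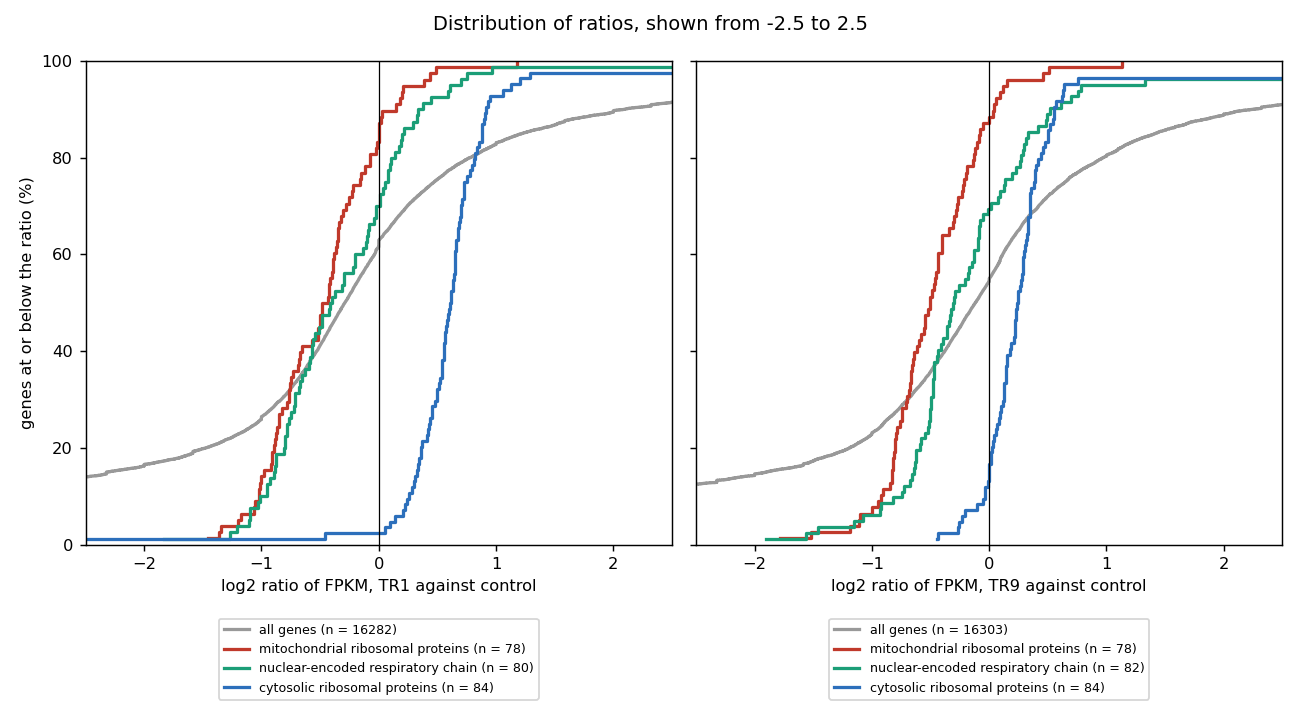
Share of genes (%) at or below each log2 ratio of FPKM to control in TR1 (left) and TR9 (right), for all genes, the 78 mitochondrial ribosomal protein genes, nuclear-encoded respiratory chain genes and cytosolic ribosomal protein genes. The curve of the 78 genes is steeper than that of all genes, with medians of -0.46 and -0.51, and lies left of the cytosolic curve, with medians of 0.61 and 0.24.

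Properties of the genes themselves were weakly related to the ratio. Over the 78 genes, Spearman's rho of the log2 ratio with transcript length was -0.15 in TR1 and -0.14 in TR9, and with control FPKM -0.09 and -0.21, where the ratio shares the control value. These genes were short, with a median length of 1058 bases against 2663 for all genes. The 63 genes whose counts were whole in each library had medians of -0.44 and -0.52, and the 15 with counts that RSEM divided between genes -0.48 and -0.44. In the annotation, 25 of the 78 genes overlap another gene.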

How the data were processed

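RNA-seq was analysed in 3 libraries, each a condition of its own given by the sample labels. Reads were filtered by the authors and mapped with BWA and Bowtie, and RSEM gave the level of each gene; versions are not given in the sources used here, and the submitters' processing notes name the build mm9. They deposited, per library and gene, the expected count, not normalized and not always whole, and the FPKM, scaled for gene length and library total. Long genes thus carry more counts at the same FPKM, and very abundant genes lower the FPKM of the rest.

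NCBI Gene IDs were matched to the RefSeq table of GRCm38.p6, used for names and neighbouring genes, and 16698 of 16742 had a name. The counts of each gene in a pair of libraries, rounded to whole numbers, were tested given the library totals (exact Poisson test, scipy 1.17.1), and p-values were adjusted by Benjamini-Hochberg over every gene that at least 1 of the pair listed. Log2 ratios are of FPKM, with values under 0.01 set to 0.01. Calls needed an FDR of 0.001 or less and a change of 1 or more on the log2 scale, the limits of the study's methods. Intervals are 95% exact (Clopper-Pearson). Those of log2 ratios were computed from rounded counts per library total, so the FPKM ratio need not lie at their centre. Depth set a floor of 3 counts, or 0.538 to 0.585 ppm of a library. Tests on 2 libraries have no replicate check, so p-values measure counting error alone.

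Named genes were those called, those with the highest and lowest mean ratios, the 5 highest in control, the extremes between lines, the Mrps18 paralogues and the leading called genes of each list; the text gives some of these. Gabpa, Myc, Pprc1, Mrpl58 and the structural regions were added with their values known. The symbol rule used no measured value, but the choice of this gene family and of the other gene lists was made with earlier results of these data known. Alternatives covered 5 scalings (TMM, median of ratios, upper quartile, totals without the 100 most abundant genes, TPM), filters, floors, thresholds, other tests (Audic-Claverie, and the exact test of edgeR 4.0.16 in R 4.3.3 with an assumed biological variation of 0.2) and other gene sets. Tests were tried on counts simulated for TR1 against control over 15728 genes. The Poisson test recovered 189 of 200 genes changed by a log2 ratio of 2, and edgeR's test 9. The simulated counts were Poisson without variation between mice, the setting that the Poisson test assumes, so they cannot show how it does with such variation.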

Additional observations from a re-analysis of the deposited data

How the results depend on the processing

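The median log2 ratio of the 78 genes stayed below 0 in TR1 and TR9 under every alternative run. In TR1 it was -0.21 with TMM, -0.22 with median of ratios, -0.25 with upper quartile, -0.33 with library totals without the 100 most abundant genes and -0.68 with TPM, and in TR9 it was -0.40 with TMM, -0.38 with upper quartile and -0.61 with TPM. Between TR9 and TR1 the median turned negative with TMM (-0.12), median of ratios (-0.11), upper quartile (-0.075) and the totals that leave out the 100 most abundant genes (-0.054), and was 0.13 with TPM. These shifts follow from the scaling factors. The number of genes called in TR1, 11 in all, was 4 with TMM, median of ratios or upper quartile, 5 without the 100 most abundant genes, 22 with TPM, 7 with a pseudocount of 1 FPKM and 30 with a 1.5-fold limit. Of all genes in TR1, 9.77% were called lower and 10.4% higher with TMM, and 11.1% and 9.23% without the 100 most abundant. With median of ratios the shares were 9.94% and 10.3%, and with upper quartile 10.2% and 9.99%. These shares were 17.9% and 6.52% with TPM, 11.0% and 7.20% with the pseudocount and 21.0% and 11.0% with the 1.5-fold limit. All 22 genes called with TPM were lower. In TR9 the number called, 6 in all, was 10 with TPM and 28 with a 1.5-fold limit. Of all genes in TR9, 12.7% were called lower and 8.40% higher with TPM, and 17.4% and 12.8% with that limit. Between TR9 and TR1, 1 gene was called with the 1.5-fold limit, against 3.99% of all genes lower and 7.91% higher. With a log2 ratio of at least 2, and with edgeR's exact test and an assumed variation of 0.2, the number called was 0 in TR1 and 0 in TR9. Of all genes, the log2 limit of 2 called 6.96% lower and 4.21% higher in TR1, and 5.69% and 4.53% in TR9. The edgeR test called 6.09% and 4.04% in TR1, and 5.09% and 4.40% in TR9. The 78 genes thus lay below the background there. In edgeR's case the assumed variation widens the error. Its self-test recovered 9 of 200 changed genes, but in simulated Poisson counts that held no variation between mice.

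The share of counts in the family was 0.406% in control, 0.325% in TR1 and 0.306% in TR9 with totals without the 100 most abundant genes, 0.281%, 0.203% and 0.198% with whole-count genes alone, and 0.383%, 0.277% and 0.269% with the 5 proteins of other symbols added. No paired analysis was possible because each condition has 1 library. Depth limits single genes to intervals with a median width of 0.61 on the log2 scale against control, and no alternative measures the spread between mice.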
